A study of Homo sapiens with 2 samples.

Results

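The long arm of chromosome 1 (1q) held 564 of the 9669 PRDM1 peaks called in U266. U266 is a human cell line grown from a multiple myeloma. These peaks were chosen by position alone, as those starting at or beyond 142.5 Mb on chromosome 1 in GRCh37 coordinates. No peak value entered the choice. The 480 peaks of chromosome 1 that ended below 121.5 Mb formed the short arm (1p), and no peak of the chromosome lay between these limits. The material was 1 library from chromatin immunoprecipitation with the rabbit monoclonal PRDM1 antibody C14A4 and 1 library of input DNA made without antibody. Both came from U266 cells, for which the labels name no treatment and give the cell type as plasma cell lymphoma. The series' design text speaks of a further myeloma line, which was not analysed here. There was no replicate, so every interval and p-value below covers counting error within 1 peak list.

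The zinc finger transcription factor PRDM1 (BLIMP-1) drives B cells to become antibody-secreting plasma cells, mainly by repressing genes. Multiple myeloma is a tumour of plasma cells. Extra copies of 1q are among its most frequent chromosome changes, and CKS1B, a regulator of cell cycle kinases, and MCL1, an inhibitor of apoptosis, lie on that arm. In ChIP-seq, extra DNA copies add reads to the input as well as to the immunoprecipitated library, so both are given here. The copy number of U266 was not measured here, and its part in the results below was not tested.

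The PRDM1 library had 7854466 tags after removal of duplicates, and the input had 8556458. At the genome mean a 10 kb stretch held 31.7 input tags. A peak is called filtered below when its false discovery rate (FDR) was at most 5% and it held at least 50 tags, the limits named by the authors' filtered list.

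PRDM1 peaks were denser on 1q than on 1p. The complete list gave 5.28 peaks per Mb on 1q and 3.95 on 1p, a ratio of 1.34 (95% confidence interval 1.18 to 1.51, adjusted p = 6.59e-06, exact binomial test). Filtered peaks numbered 67 on 1q and 47 on 1p, or 0.628 and 0.387 per Mb. Their ratio was 1.62 (1.1 to 2.41, exact binomial adjusted p = 0.0223). Against chromosomes 2 to 22, 1q had 1.63 times the complete-list peaks per Mb (1.5 to 1.78, exact adjusted p = 6.32e-25). It had 2.15 times the filtered peaks per Mb (1.65 to 2.77, exact adjusted p = 1.9e-07). With 1q and 1p set beside 23 whole chromosomes, 1q ranked second of 25 in complete-list peaks per Mb, behind chromosome 19 at 5.99. In filtered peaks per Mb its rank was 4, behind chromosomes 19, 17 and 21. The binomial tests take peaks as independent. Over 10 Mb windows of 1q, however, density ran from 2.5 to 8.2 peaks per Mb, and from 0.1 to 1.8 for filtered peaks. The exact 95% Poisson intervals at these limits of the complete list, 1.62 to 3.69 and 6.52 to 10.2, did not overlap. The intervals above are thus too narrow and the p-values too small, by an amount not measured here.

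With the same tag limit on both arms the filtered ratio to 1p was 1.61 at 25 tags (exact binomial adjusted p = 7.11e-05) and 2.05 at 100 tags, where 18 peaks against 10 did not pass the test (exact adjusted p = 0.13). It was 1.31 without 150 to 160 Mb of 1q (exact adjusted p = 0.237), a window left out because it held the most filtered peaks, while all of 1p was kept. With a limit of 75 tags on 1q alone and 50 on 1p, a change that can only lower the ratio, it was 0.799 (exact adjusted p = 0.37). Over chromosomes 2 to 22 the filtered ratio was 1.74 without 150 to 160 Mb (exact adjusted p = 0.00102). There it was 1.06 with 75 tags asked of 1q alone (exact adjusted p = 0.714).

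The share of peaks that passed the limits differed less than their number. Filtered peaks made up 11.9% of the 1q peaks (95% Wilson interval 9.46 to 14.8), where the whole list gave 9.17%, 1p gave 9.79% and chromosomes 2 to 22 gave 9.01%. The difference from 1p was 2.09 percentage points (-1.75 to 5.84, Fisher's exact adjusted p = 0.32). The difference from chromosomes 2 to 22 was 2.87 points (0.371 to 5.86, Fisher's exact adjusted p = 0.0492), and it missed the threshold from 150 Mb on, at 2.24 points. An FDR of at most 5%, with no tag minimum, was met by 268 of the 564 peaks of 1q (47.5%), against 43.5% of the whole list. The figure for 1p was also 43.5%, a difference of 3.98 points (-2.08 to 9.98, Fisher's exact adjusted p = 0.232). From chromosomes 2 to 22 the difference was 4.52 points (0.297 to 8.78, Fisher's exact adjusted p = 0.0587), which did not pass the test.

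The excess was not spread evenly over weak and strong peaks. The weakest peaks, with 9 to 11 tags, were rarer per Mb on 1q than on 1p, with 90 against 140 peaks and a ratio of 0.732 (0.555 to 0.96). Against chromosomes 2 to 22 the density of this class was nearly the same, 0.843 and 0.842 per Mb (ratio 1.00, 0.802 to 1.24), and 1p stood higher, at 1.15. For the other 5 classes the ratio of 1q to chromosomes 2 to 22 was 1.54 to 2.21. The ratio was 1.39 (1.06 to 1.82) at 12 to 14 tags and 1.64 (1.28 to 2.12) at 15 to 24 tags. Peaks of 25 to 49 tags numbered 125 on 1q and 82 on 1p, a ratio of 1.74 (1.30 to 2.32). At 50 to 99 tags the ratio was 1.51 (0.964 to 2.38), and at 100 tags or more 18 peaks against 10 gave 2.05 (0.897 to 4.97). These ratios were not tested one by one. The caller's p cutoff of 1e-05 asks for more tags where the input is higher, and its part in these ratios was not tested. The weakest class made up 16% of the 1q peaks and 29.2% of the 1p peaks, and the median peak held 17 tags on 1q and 14 on 1p.

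**Figure D1:**
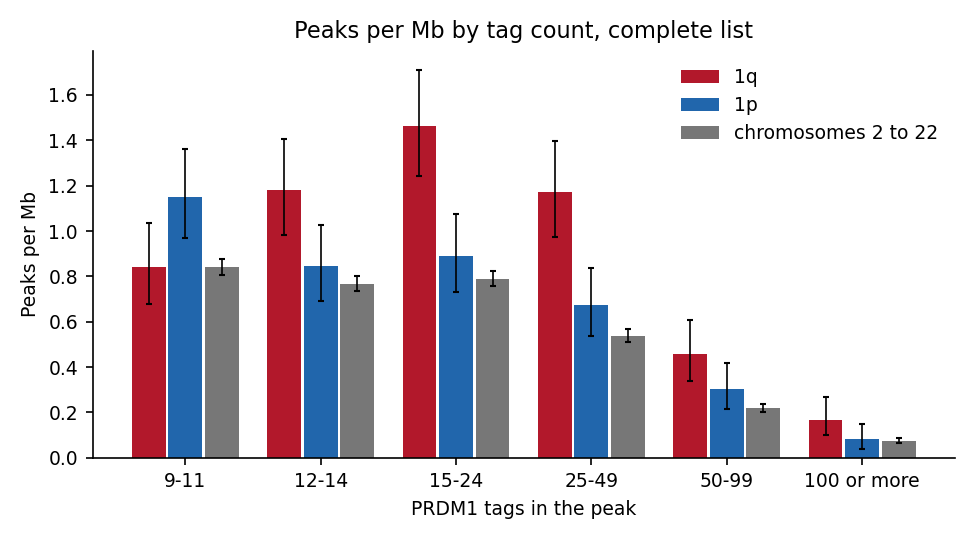
Peaks per Mb of sequence (vertical axis) in 6 classes of PRDM1 tag count (horizontal axis) for 1q, 1p and chromosomes 2 to 22, with bars for the density and lines for exact 95% Poisson intervals. The 1q bar is below the 1p bar at 9 to 11 tags and above it in the other 5 classes.

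Peaks of 1q stood on a higher input background. The background behind each peak, which the caller takes as the highest of several local input densities and the genome mean, had a median of 1.42 times the genome mean on 1q. It was 1.22 on 1p and 1.26 on chromosomes 2 to 22. On 1q the quartiles were 1.1 and 1.89 times. Only 108 of 564 peaks of 1q (19.1%, 95% Wilson interval 16.1 to 22.6) lay at the genome mean, the lowest value the caller uses, where the whole list gave 31.7%. On 1p it was 161 of 480 (33.5%, 29.5 to 37.9). The difference was -14.4 points (-19.7 to -9.05, Fisher's exact adjusted p = 4.02e-07), and from chromosomes 2 to 22 it was -12.7 points (-15.9 to -9.14, Fisher's exact adjusted p = 3.1e-10). Among the same 25 parts, the median background of 1q ranked second, behind chromosome 21 at 1.58. The files give no input between peaks, so the input over the whole arm was not measured. Both differences rest on how tags were scaled and rounded in solving for the background. With tags rounded to the nearest whole number they were -2.41 points from 1p and -3.94 points from chromosomes 2 to 22, and with unscaled tags -4.72 and -4.88 points. Those from 1p did not pass the test and those from chromosomes 2 to 22 did. Over peaks of at least 25 tags, as a further setting, they were -9.48 and -5.93 points, and both passed.

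**Figure D2:**
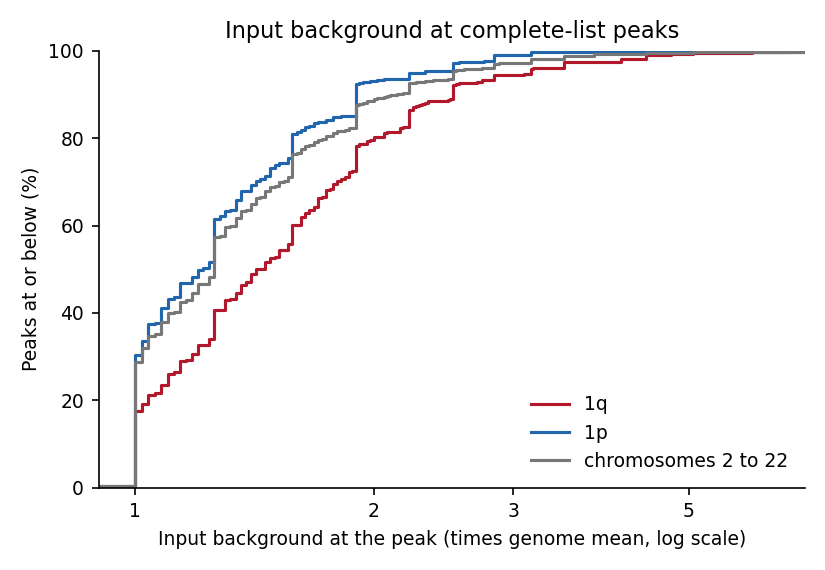
Share of complete-list peaks in percent (vertical axis) whose input background was at or below the value on the horizontal axis, in multiples of the genome mean on a log scale. The 1q line starts lower, with 19.1% of peaks at the genome mean, and lies to the right of the lines for 1p and chromosomes 2 to 22 over most of the range.

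Relative to that background, the medians of 1q were below those of 1p. Tags over expected, the scaled tags of a peak divided by those its background predicts, had a median of 5.25 over the 564 peaks of 1q. The medians were 5.70 on 1p and 5.53 on chromosomes 2 to 22. For filtered peaks the median was 8.52 on 1q, with quartiles of 5.93 and 11.9. It was 11.6 on 1p, with quartiles of 7.62 and 14.5, and 10.5 on chromosomes 2 to 22. The divisor is the background compared above, so these ratios are not independent of that difference. A fixed tag minimum also lets in lower ratios where the background is higher. At least 10 times the expected tags were held by 28 of 67 filtered peaks of 1q (41.8%), where all filtered peaks gave 52.4% and 1p gave 57.4%. The difference from 1p was -15.7 points (-32.7 to 2.87, Fisher's exact adjusted p = 0.154), which did not pass the test. Filtered peaks of at least 10 times numbered 28 on 1q and 27 on 1p, a ratio of 1.18 per Mb (0.67 to 2.08, exact binomial adjusted p = 0.59 when it takes the place of the filtered density). Over chromosomes 2 to 22, with 404 such peaks, the ratio per Mb was 1.71 (1.12 to 2.51, exact binomial adjusted p = 0.021), which passed. Input of 2 or more times the genome mean lay under 35 of the 67 filtered peaks of 1q (52.2%), 9 of the 47 of 1p (19.1%) and 249 of the 767 of chromosomes 2 to 22 (32.5%).

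**Figure D3:**
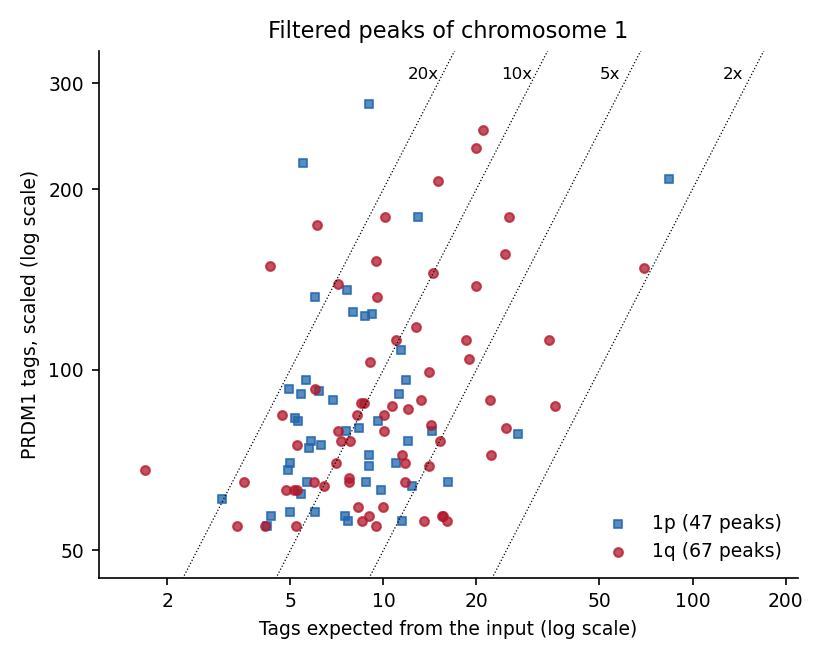
PRDM1 tags scaled to the input depth (vertical axis, log scale) against the tags expected from the input (horizontal axis, log scale) for the 67 filtered peaks of 1q (circles) and the 47 of 1p (squares). Dotted lines mark 2, 5, 10 and 20 times the expected tags, and 28 circles reach the line for 10 times.

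None of the 20 peaks with the highest scores in the genome lay on 1q, where the score is 10 times the negative log10 of the caller's p. Of the first 50 by score 6 lay on 1q, and of the first 100 it was 8. For all 9669 peaks the count on 1q was 564, and for the 887 filtered peaks it was 67. These counts were not tested. All folds and scores per peak are the authors' own. The peak of highest score on 1q ran from 222817136 to 222818462, with 160 tags, a fold of 96.74 at the summit and 28.5 times the expected tags (95% Poisson interval 24.3 to 33.3). Its score ranked 33 of 887. By comparison, the first peak of 1p, from 9685600 to 9687720, held 255 tags at 30.8 times. The second of 1p, from 111746131 to 111747798, held 203 tags at 40.1 times and a fold of 168.18.

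Tags and strength over background gave different leaders on 1q. The most tags, 231, lay from 172713775 to 172716111, on a background of 2.84 times the genome mean, so the ratio was 11.9 (10.4 to 13.6). It ranked 23 of 887 by tags and 352 of 885 by tags over expected. The peak from 152850674 to 152854341 was wide, at 3668 bp, and held 215 tags at 11.7 times. The peak from 235097339 to 235099649 held 190 tags at 13.7 times. A further 2 peaks held 166 tags each but differed in strength. The one from 153917754 to 153919194 reached 17.8 times (15.2 to 20.8) and the one from 151956167 to 151959347 reached 7.07 times (6.04 to 8.23).

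Several strong peaks stood on input at the genome mean. From 244210595 to 244211954 a peak of 137 tags reached 34.6 times (29 to 40.9), with a fold of 96.24. This was the second highest ratio among filtered 1q peaks and ranked 6 of 885 in the genome. The peak from 206137895 to 206138412 held 49 tags at 32.3 times (23.9 to 42.7). It missed the filtered list by 1 tag, although its ratio was above that of all but 2 filtered peaks of the arm. The peak from 213243327 to 213244384 held 51 tags at 16.4 times. The peak from 193417650 to 193418577 held 41 tags at 15 times and was also left out by the tag limit.

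The other peaks of high score were spread over the arm, but none of the 15 highest lay between 185287455 and 206678791. The peak from 172500835 to 172502023 held 128 tags at 19.5 times (16.3 to 23.2), and the one from 185285950 to 185287455 held 140 tags at 16 times. The peak from 206678791 to 206680664 held 122 tags at 13.8 times, and the one from 237669545 to 237671358 held 134 tags at 9.99 times. With fewer tags, the peak from 162456896 to 162457779 had 60 tags at 18.4 times. The peak from 240872495 to 240873769 had 78 tags at 17.8 times, and the one from 168147371 to 168148810 had 86 tags at 15.5 times. The widest peak of the arm, 4260 bp from 228195358 to 228199617, held 144 tags at 6.33 times. By this ratio it stood below the 60-tag peak at 162456896. The peak from 179098143 to 179099919 held 103 tags at 10.2 times. Among the 2 highest scores of their 10 Mb windows were also peaks starting at 147071110, with 58 tags at 12.3 times, and at 199900789, with 51 tags at 10.5 times. Those at 184132633 and 211502684 held 82 and 78 tags at 6.71 and 8.33 times.

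Peak number and input background both varied along the arm in windows of 10 Mb, which were described without a test. The window from 150 to 160 Mb held 82 of the 564 complete-list peaks of 1q and 18 of its 67 filtered peaks (26.9%). In this window 22% of the peaks were filtered, against 11.9% on all of 1q and 9.17% of the whole list. Its median background was the highest of the 11 windows, 1.83 times the genome mean, and 2 of its 82 peaks lay at the genome mean. From 230 to 240 Mb there were again 82 peaks, at a median background of 1.63, but 7 were filtered. From 160 to 170 Mb there were 68 peaks and 5 filtered, and from 170 to 180 Mb 57 peaks and 9 filtered, with medians of 1.51 and 1.58.

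Of the 11 windows, the one from 190 to 200 Mb was the sparsest, at 2.5 peaks per Mb. It had 25 peaks, of which 1 was filtered, and 21 of the 25 lay at the genome mean. From 180 to 190 Mb there were 40 peaks and 2 filtered, on a median background of 1.74. From 210 to 220 Mb 46 peaks stood on a median background of 1.14 times and 7 were filtered. Their median of 6.24 times the expected tags was the highest of the 11 windows. In that window 63.0% of the peaks had an FDR of at most 5%, against 51.2% from 150 to 160 Mb. This share was 47.5% on all of 1q and 43.5% for the whole list. Filtered peaks made up 4% of the peaks from 190 to 200 Mb, 5% from 180 to 190 Mb and 15.2% from 210 to 220 Mb. On all of 1q they made up 11.9%, and of the whole list 9.17%. The windows of 1p had median backgrounds from 1 to 1.27, and 7 of the 11 windows of 1q lay above the highest of them.

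**Figure D4:**
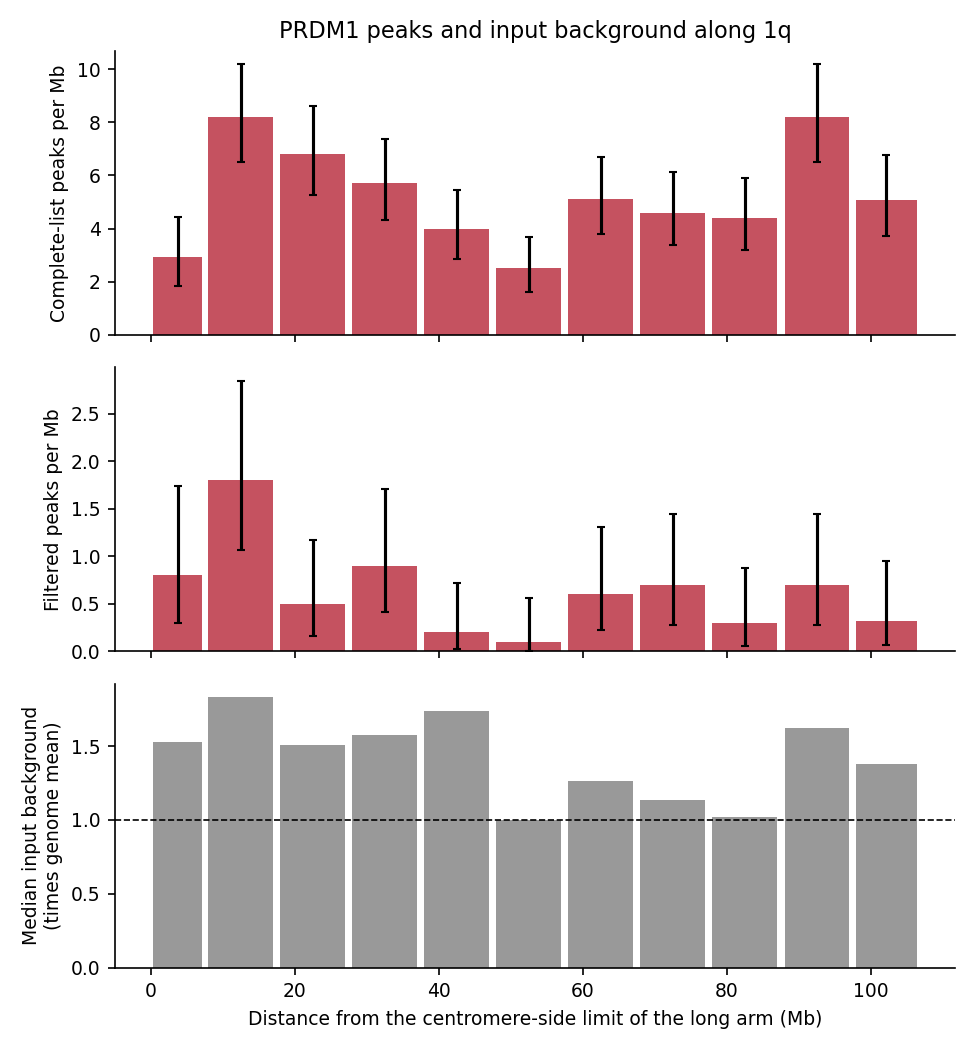
Complete-list peaks per Mb (top), filtered peaks per Mb (middle) and the median input background at the peaks (bottom, dashed line at the genome mean) in 11 windows of 1q, by distance from its centromere-side limit. Lines are exact 95% Poisson intervals. The second window, 150 to 160 Mb, is highest in filtered peaks and in background, and the sixth, 190 to 200 Mb, is lowest in both.

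Filtered peaks were also counted in windows of 1 Mb, and whether they cluster was not tested. Of 102 windows of 1 Mb with any 1q peak, 63 held no filtered peak, 21 held 1 and 18 held more. Filtered peaks made up 11.9% of all 1q peaks and 9.17% of the whole list. The window from 156 to 157 Mb, which had the most, held 5 among 15 peaks, with 53 to 103 tags each. The peak from 156832796 to 156833842 was the strongest of these over its background, with 73 tags at 11.1 times. The peak from 156461512 to 156464017 had more tags, 103, but 6.04 times the expected number, and the one from 156901121 to 156902538 had 53 tags at 3.65 times. The windows from 152, 154, 155, 206 and 212 Mb held 3 filtered peaks each.

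The window from 172 to 173 Mb held 4 filtered peaks, among them the peak with most tags of the arm. Besides the peaks of 231 and 128 tags, the one from 172787528 to 172789372 held 109 tags at 9.27 times. The weakest, from 172852084 to 172853668, held 82 tags at 4.01 times, on a background of 4.42 times the genome mean. A further peak among them, from 172750607 to 172751547, held 48 tags at 10.4 times and fell short of the tag limit. Over 491 kb this group had 9 peaks, of which 8 had an FDR of at most 5%, where the whole list gave 43.5% and 1q 47.5%. A second group of 12 peaks, over 311 kb, surrounded the peak of 190 tags, and 9 of the 12 had an FDR of at most 5%. Its other filtered peaks were the one from 235146832 to 235148258, with 127 tags at 6.91 times, and the one from 234907767 to 234908934, with 55 tags at 7.11 times. The median background was 1.74 in the first group and 1.97 in the second, and both groups were chosen for their strong peaks after the values were seen, so nothing is read from these counts.

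**Figure D5:**
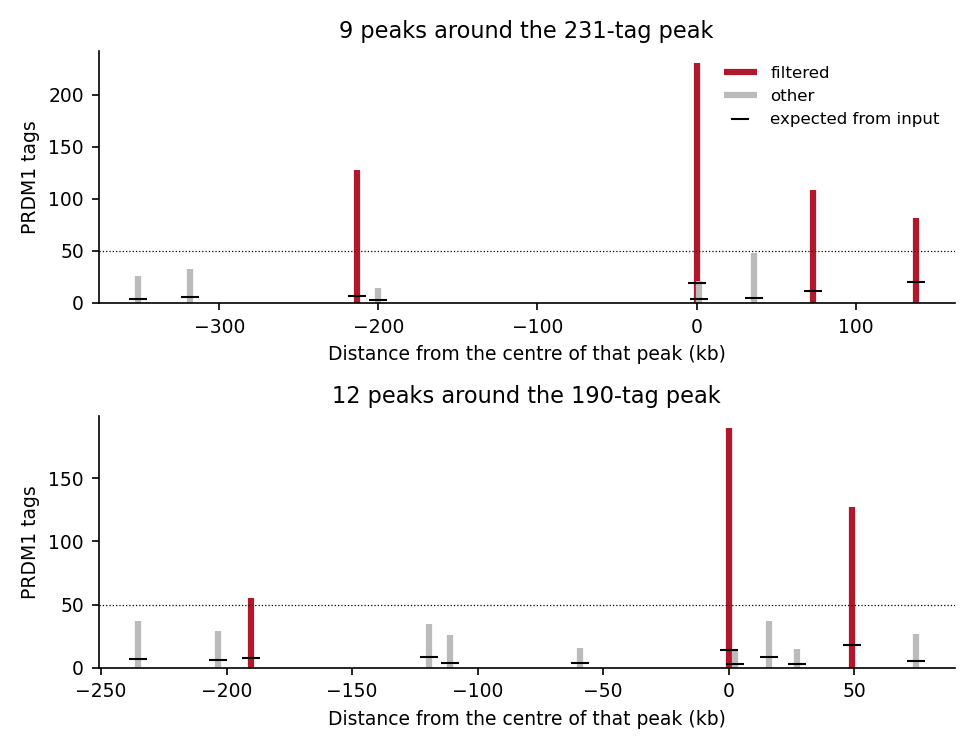
PRDM1 tags per peak (vertical axis) by distance in kb from the centre of the strongest peak, for the group around the 231-tag peak (top) and around the 190-tag peak (bottom). Red lines are filtered peaks, grey lines are other peaks, short black marks give the tags expected from the input at PRDM1 depth, and the dotted line marks 50 tags. All 7 filtered peaks rise above 50 tags and above their expected tags.

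The stretch nearest the centromere held 3 filtered peaks on high input. The first 3 peaks inside the limit of 142.5 Mb began at 143743093, 143913183 and 144519940, with 11, 63 and 9 tags. The last 3 before the gap began at 120204616, 120611788 and 120838210, with 13, 15 and 30 tags. From 142.5 to 150 Mb there were 22 peaks, 6 of them filtered (27.3%), against 11.9% on all of 1q and 9.17% of the whole list. Over the 22 the medians were 18.5 tags and a background of 1.52 times the genome mean, where all of 1q gave 17 and 1.42. Of the 22, 5 lay at the genome mean. Input of 5 or more times the genome mean lay under 3 of 67 filtered peaks of 1q. It lay under 1 of 47 on 1p and 18 of 767 on chromosomes 2 to 22. All 3 of 1q lay between 142.5 and 150 Mb. The one from 145289475 to 145292796 held 136 tags, but the input predicted 69.8 scaled tags, a ratio of 2.12 (1.78 to 2.51), the lowest of the 67. The one from 145044388 to 145046091 held 80 tags at 2.42 times, and the one from 144532870 to 144534677 held 103 tags at 3.26 times. The other 2 of the 5 lowest ratios lay further out, starting at 211911714 and 237640991, with 74 and 67 tags at 3.21 and 3.23 times.

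The same stretch held the filtered peak of 1q with the highest ratio to its background. It ran from 143913183 to 143913715, with 63 tags at 40.3 times (30.9 to 51.5), and ranked 3 of 885 in the genome. At 533 bp it was also the narrowest filtered peak of 1q, where the median was 1464 bp. Whether reads align uniquely there was not tested. No 1q peak with 50 or more tags failed the FDR limit, and all 67 such peaks were filtered. This was nearly general. On 1p, 37 peaks held 50 to 99 tags and 10 held 100 or more, and 47 were filtered. On chromosomes 2 to 22 these classes held 576 and 201 peaks, and 767 were filtered.

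Peak shape and spacing on 1q were described without a test. Of 67 filtered peaks, 63 (94.0%) had their summit in the central 50% of their length, against 95.7% on 1p and 94.9% on chromosomes 2 to 22. Of the same 67, 16 (23.9%) had a neighbour closer than 10 kb, against 17% on 1p and 24% on chromosomes 2 to 22. The closest neighbour of a filtered peak lay 8 bp away, a 14-tag peak at 178943036 beside the 52-tag peak that ended at 178943027. The 231-tag peak had a 21-tag neighbour 201 bp away, and the 58-tag peak from 208259280 to 208260628 had a 12-tag neighbour at 205 bp. The weaker partners beside the 52-tag, 231-tag and 58-tag peaks had FDRs of 47.33%, 1.65% and 14.86%, so the 21-tag peak alone met the FDR limit.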

How the data were processed

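The authors called peaks with MACS 1.4.1, per the file headers, from merged alignment files, with a p cutoff of 1e-05 and a fragment size of 200 bp. CASAVA 1.8.2 and Bowtie 0.12.7 are named in the submitters' processing notes. The deposited values per peak are the raw tag count, a score of −10 log10 p, a fold ratio at the summit, an FDR in percent, and positions. A genome build is not given in the sources used here. All peaks lay within the GRCh37 chromosome lengths, entered by hand, whereas 53 ran past a GRCh38 end. Both deposited copies of the complete list held the same 9669 peaks, and 887 recomputed filtered peaks matched the deposited ones.

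Expected tags were solved from each score, with tags scaled by 1.09 and rounded down, a formula chosen for giving whole input tags. Of 6603 peaks above the genome mean, 99% then had a whole number of input tags per 10 kb (within 0.1) or in the peak (within 0.02), where evenly spread values would give 23.2%. The recovery put 2 peaks of 1q under 0.98 of the genome mean, a value the caller does not use, and they were kept. Intervals on tags over expected cover the PRDM1 tags only, and the input tags behind a background are few.

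Densities were compared by exact two-sided binomial tests and shares by Fisher's exact test, with Benjamini-Hochberg adjustment over 12 tests (6 measures, 2 comparisons) at 0.05, with scipy 1.17.1, and the scripts were tested on simulated data. Nearby peaks are not independent and density varied along 1q, so these p-values are too small and their intervals too narrow. At the genome mean means within 2% of it or below. Regions named were the 15 of highest score, the 5 highest by tags, fold and ratio, the 5 lowest by ratio (added after seeing values), 2 per 10 Mb window, high-background peaks, closest pairs and densest windows. Members, lists and tests were chosen with earlier results of these data known. Genes, motifs and sequences were not analysed here, since no annotation of this build was used.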

Additional observations from a re-analysis of the deposited data

How the results depend on the processing

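No paired analysis was possible because no library was replicated, and the comparison with genes and motifs was not run. Of 72 alternative settings of the 12 tested comparisons, 60 kept direction and side of the threshold. The settings without 150 to 160 Mb, with raised tag limits, with 10 times the expected tags, at an FDR of 5% without a tag limit, and from 25 tags for the background were chosen after seeing the data. Filtered density over 1p, 1.62, did not pass at 100 tags (2.05, 18 peaks against 10), without 150 to 160 Mb (1.31), with the limit of 1q raised to 58.3 tags by the background ratio (1.26) or with 10 times the expected tags (1.18). With 75 tags asked of 1q alone and 50 elsewhere it turned to 0.799, and to 1.06 over chromosomes 2 to 22. Filtered density over chromosomes 2 to 22 passed at 100 tags (2.23) and without 150 to 160 Mb (1.74). It also passed with the limit of 1q raised to 56.3 tags by the background ratio (1.77) and with 10 times the expected tags (1.71). The filtered share against chromosomes 2 to 22, 2.87 points, did not pass without backgrounds of 5 times or more (2.59), from 150 Mb (2.24) or at 100 tags (0.853). The share of peaks by FDR alone, 4.52 points from chromosomes 2 to 22 at 5%, passed at an FDR of 1% (5.73). The background difference from 1p, -14.4 points, was -2.41 with tags rounded to the nearest and -4.72 unscaled, and from chromosomes 2 to 22, -12.7 points, it was -3.94 and -4.88. Those recoveries gave whole input tags for 56.0% and 30.8% of peaks, against 99% as used.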

Other observations

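The longest stretch of 1q free of complete-list peaks ran 3.71 Mb, from the peak ending at 186390434 to the one starting at 190099662. The next were 1.76 Mb from 214964110 to 216720939 and 1.38 Mb from 195444842 to 196827649. The median gap between neighbouring peaks was 108 kb on 1q and 136 kb on 1p, where the longest was 6.04 Mb, from 101776664 to 107815576. The last peak of 1q lay from 248684982 to 248685801.

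Below the tag limit, 113 of the 125 peaks of 1q with 25 to 49 tags (90.4%) had an FDR of at most 5%, against 97.6% on 1p and 92.9% on chromosomes 2 to 22. With 15 to 24 tags it was 70 of 156 on 1q (44.9%), 70 of 108 on 1p (64.8%) and 59.3% on chromosomes 2 to 22. These shares were not tested. Within the filtered list of 1q, 1 adjacent pair lay within 10 kb, at 8696 bp.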
